A study of Mus musculus with 12 samples.

Results

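The genes described here are 39 nuclear receptor genes of the mouse, found by their symbols among the 22380 protein-coding genes of an mm9 annotation, in which all 39 were present. They were chosen by name, without any measured value, and the PPAR genes, Rxra and the Rev-erb genes were left out of the choice. The H3K9me2 and H3K9me3 forms of histone H3, methylated on one lysine, were mapped by ChIP-seq in brown adipose tissue (BAT) and subcutaneous white adipose tissue (WAT) of wild-type C57BL/6J mice. The mice had been given a high-fat diet (HFD) or a standard chow diet (SCD, named the control diet in the labels) from 6 weeks of age for 12 weeks. Each of the 8 combinations of diet, tissue and mark was 1 library with 1 deposited list of peaks, and the series also holds 4 input libraries, which were not used here. The labels do not say how many animals a library came from. The methods of the study pair the name H3K9me2 with an antibody described as recognizing the tri-methyl form and H3K9me3 with one described as recognizing the di-methyl form, so each mark keeps the name its label gives.

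Nuclear receptors are transcription factors, most of which are switched by small lipid-soluble ligands such as steroid hormones, thyroid hormone, retinoids, bile acids and oxysterols. They bind hormone response elements near their target genes, many of them as a pair with an RXR partner, and recruit corepressors or coactivators depending on the ligand. In adipose tissue they are known for their part in adipocyte differentiation, lipid storage and thermogenesis, and several are orphans for which no ligand is settled. H3K9me2 and H3K9me3 are marks commonly found on silenced chromatin.

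A gene was counted in a list when a peak with a score of at least 50 came within 3 kb of any of its annotated transcription start sites, and such a peak is called a promoter peak below. The score is a statement about how far a peak stood from background in its own library (read as 10 times the negative log10 of a p-value), so it ranks peaks within a list and is no measure of strength between lists. The lists held between 8350 (SCD WAT H3K9me3) and 52758 (HFD BAT H3K9me3) peaks at that score, and the depth behind them is unknown. With 1 library per group no difference between diets, tissues or marks could be tested, and the intervals given are exact (Clopper-Pearson) binomial 95% intervals that cover counting error only. As the tissues were bulk samples, fewer cells that carry a mark and less of the mark per cell cannot be told apart. Peaks of these marks do not show which genes are expressed and so cannot check the tissue itself, but of 8 brown adipocyte markers 3 to 7 had a promoter peak in the BAT lists and 3 to 5 in the WAT lists, and of 8 white adipocyte markers 1 to 2 and 0 to 2. Of all genes, 43.3% to 58.9% had one in the BAT lists and 6.96% to 42.3% in the WAT lists.

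Counted over all annotated starts, the nuclear receptor genes carried promoter peaks more often than genes at large in every list. In BAT, H3K9me2 peaks were present at 29 of the 39 genes on HFD (74.4%, 57.9 to 87.0%) and at 26 on SCD (66.7%, 49.8 to 80.9%), beside 45.6% and 43.3% of all genes. H3K9me3 peaks in BAT were present at 33 genes on HFD (84.6%, 69.5 to 94.1%) and at 30 on SCD (76.9%, 60.7 to 88.9%), beside 58.9% and 52.3% of all genes. In WAT, H3K9me2 peaks were present at 25 genes on HFD (64.1%, 47.2 to 78.8%) and at 24 on SCD (61.5%, 44.6 to 76.6%), beside 39.3% and 42.3% of all genes. H3K9me3 peaks in WAT were present at 26 genes on HFD (66.7%, 49.8 to 80.9%) and at 8 on SCD (20.5%, 9.3 to 36.5%), beside 35.9% and 6.96% of all genes. In each list the interval of the nuclear receptor share lay above the share of all genes, but with only the most upstream start of each gene it did so in 0 of the 8 lists. H3K9me2 in HFD BAT was then present at 16 receptor genes (41.0%, 25.6 to 57.9%), beside 40.1% of all genes, and H3K9me3 in HFD BAT at 25 (64.1%, 47.2 to 78.8%), beside 55.8%. The list with few receptor genes was the one with few peaks at any gene. A nuclear receptor gene was in 5.15 lists on average (median 6), and a gene at large in 3.25 (median 3). The receptor genes also had more annotated starts, with a median of 5 against 2, and more often a CpG-rich promoter, and these features are set beside the shares further on.

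**Figure D1:**
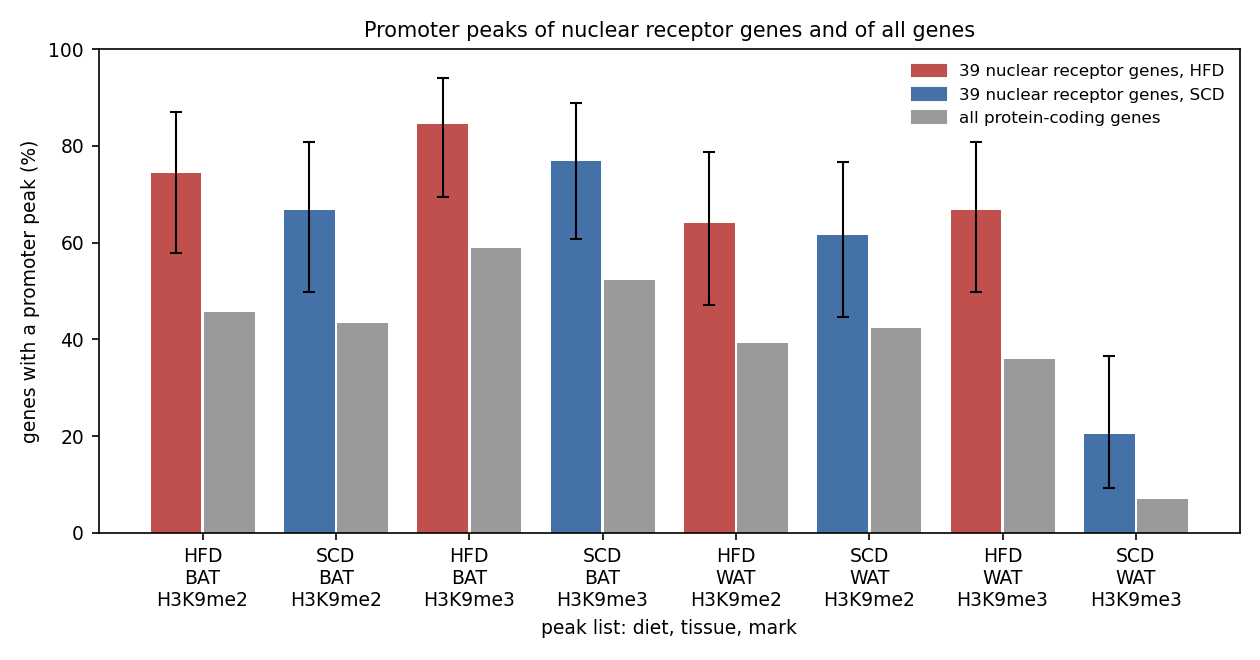
Share of genes with a promoter peak (y axis, percent) in each of the 8 peak lists (x axis). Red (HFD) and blue (SCD) bars are the 39 nuclear receptor genes with exact binomial 95% intervals, and grey bars are all 22380 protein-coding genes. The coloured bar is the taller one in every list, from 84.6% beside 58.9% in HFD BAT H3K9me3 to 20.5% beside 6.96% in SCD WAT H3K9me3.

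The genes differed widely among themselves. Of the 312 cases of 39 genes in 8 lists, 201 had a promoter peak. In all 8 lists were 6 genes (15.4%, beside 3.72% of all genes), namely Nr3c2, Esr1, Esr2, Pgr, Nr2f2 and Nr4a3. That count was 1 with a score of at least 80 (beside 1.05% of all genes) and 3 with equal numbers of peaks (beside 1.09%). It was 2 with 1 start per gene (beside 2.97%) and 11 with no lowest score (beside 7.41%). In none were 3 genes (7.69%, beside 31.8% of all genes), namely Nr1h4, Nr1i2 and Nr1i3. The count of genes in none was 7 with a score of at least 80 (beside 41.1% of all genes). It was 13 with equal numbers (beside 57.9%) and 10 with 1 start per gene (beside 35.1%). Another 10 genes were in 7 lists, and for each of them the missing list was SCD WAT H3K9me3. The genes in 2 lists were Nr0b2, Rarb, Esrra and Hnf4a. By role, promoter peaks were most frequent at the steroid hormone receptors (38 of 40 cases) and the NR4A receptors (20 of 24), and least frequent at the sensors of lipids, bile acids and xenobiotics (14 of 56). Within 1 kb of a start the steroid receptors had 30 of 40 cases (75.0%), below the NR4A receptors with 20 of 24 (83.3%), since the 8 Esr2 cases lay farther out. In the other 4 roles between 66.7% and 68.1% of the cases had a peak.

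**Figure D2:**
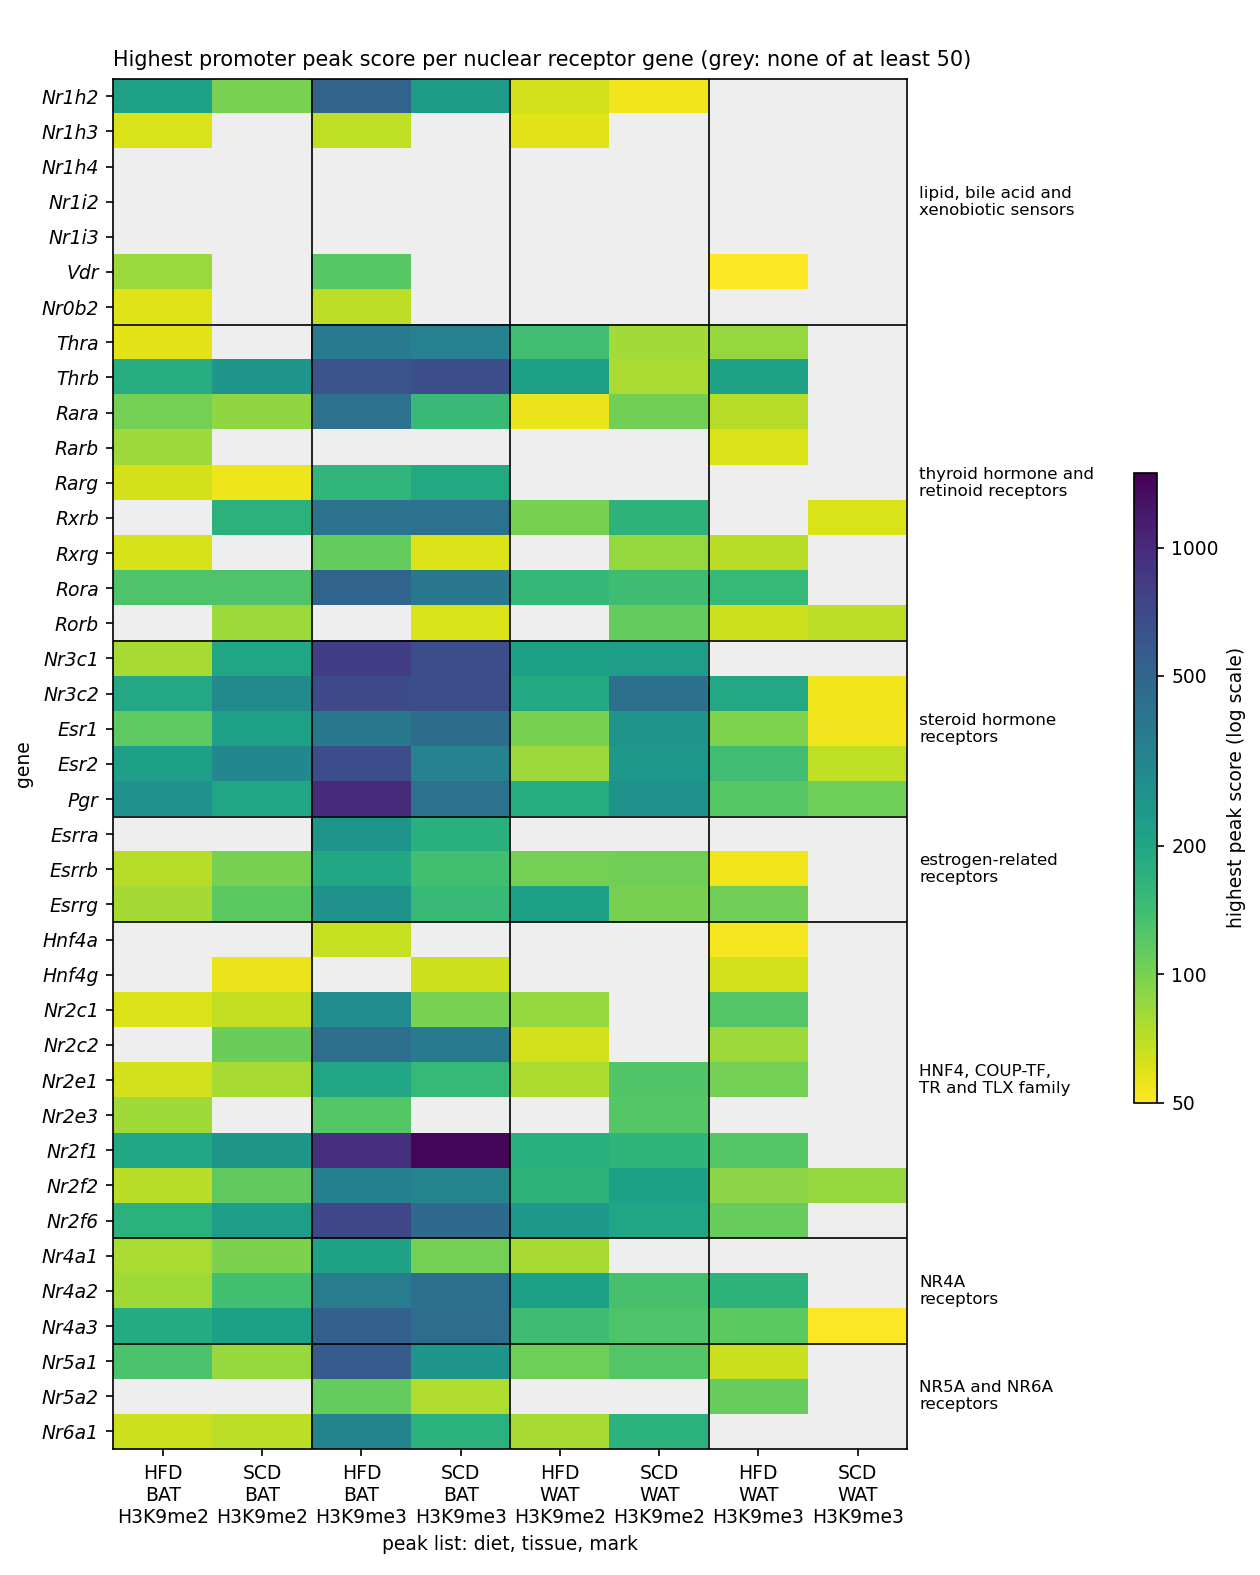
Highest promoter peak score (colour, log scale) of each nuclear receptor gene (rows, grouped by role) in each list (columns, HFD left of SCD within tissue and mark). Grey cells have no promoter peak of at least 50. The rows of Nr1h4, Nr1i2 and Nr1i3 are grey throughout, the steroid receptor rows are filled but for Nr3c1 in H3K9me3 of WAT, and the column of SCD WAT H3K9me3 has 8 filled cells.

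The sensors of lipids, bile acids and xenobiotics had the fewest promoter peaks. The 3 receptors without any are all known for work in liver and gut. Nr1h4 encodes FXR, which senses bile acids, Nr1i2 encodes PXR and Nr1i3 encodes CAR, both of which sense drugs and other foreign compounds. None of them had a weaker promoter peak in the SCD WAT lists, the only ones that go below 50. In its body, beyond 3 kb of its start, Nr1i2 had 1 peak in SCD BAT H3K9me2 and 1 in SCD BAT H3K9me3. The sequences of the 3 genes are shown because they had no promoter peak, with CpG dinucleotides in capitals. Each sequence runs from 250 bases before to 50 bases after the most upstream start. They lie at chr10:88996281-88996580 (Nr1h4, minus strand), chr16:38294861-38295160 (Nr1i2, minus strand) and chr1:173143851-173144150 (Nr1i3, plus strand) of mm9, outside exons but for the 50 bases after the start, and hold 7, 2 and 3 CpGs, with observed over expected CpG ratios of 0.298, 0.13 and 0.144.
Nr1h4: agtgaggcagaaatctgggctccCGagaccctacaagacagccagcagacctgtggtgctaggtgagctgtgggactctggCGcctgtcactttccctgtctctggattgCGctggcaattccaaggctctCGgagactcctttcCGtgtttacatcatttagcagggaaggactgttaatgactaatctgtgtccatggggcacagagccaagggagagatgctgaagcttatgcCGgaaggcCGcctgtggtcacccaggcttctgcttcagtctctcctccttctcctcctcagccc
Nr1i2: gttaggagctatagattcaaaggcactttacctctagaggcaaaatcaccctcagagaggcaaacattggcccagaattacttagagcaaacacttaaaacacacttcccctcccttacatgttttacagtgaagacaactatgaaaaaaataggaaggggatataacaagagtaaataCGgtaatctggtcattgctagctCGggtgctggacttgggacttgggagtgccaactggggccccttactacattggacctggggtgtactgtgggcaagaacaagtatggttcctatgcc
Nr1i3: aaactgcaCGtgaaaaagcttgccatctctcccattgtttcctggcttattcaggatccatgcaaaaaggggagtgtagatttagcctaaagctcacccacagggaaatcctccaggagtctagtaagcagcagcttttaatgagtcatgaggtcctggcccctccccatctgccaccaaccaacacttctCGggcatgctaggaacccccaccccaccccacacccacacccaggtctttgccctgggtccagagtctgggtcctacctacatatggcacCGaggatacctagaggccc
Among all 39 genes the median ratio at the most upstream start was 0.588, and among all protein-coding genes 0.534.

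The other 4 sensors had promoter peaks of at least 50, and at 3 of them these were in HFD lists alone. Nr1h3 encodes LXR alpha, an oxysterol receptor that drives lipogenic genes. Its scores were 60.4 in HFD BAT H3K9me2, 69.4 in HFD BAT H3K9me3 and 58.4 in HFD WAT H3K9me2, and it had no peak of at least 50 in any SCD list. The H3K9me2 peaks of both tissues shared one start and the H3K9me3 peak lay at another. In SCD WAT H3K9me2, whose list goes down to a score of 30, Nr1h3 had a peak of 44.8, so its absence there is a matter of the lowest score chosen.

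Vdr, the vitamin D receptor, scored 83.6 in HFD BAT H3K9me2, 121.25 in HFD BAT H3K9me3 and 50.2 in HFD WAT H3K9me3, with no promoter peak in an SCD list. In its body, beyond 3 kb of any start, Vdr had 1 peak in SCD BAT H3K9me2 and 1 in SCD BAT H3K9me3. On HFD the body held 3 peaks in BAT H3K9me2 and 1 in WAT H3K9me3. Nr0b2 encodes SHP, a receptor without a DNA-binding domain that represses other receptors. It scored 59.0 in HFD BAT H3K9me2 and 70.5 in HFD BAT H3K9me3, and 33.0 in SCD WAT H3K9me2, below the lowest score used. Both of these genes thus had their promoter peaks of at least 50 in the HFD lists, which in BAT were the longer ones.

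Nr1h2, which encodes LXR beta, was the sensor with the most peaks. Its highest scores were 214.5 on HFD and 98.7 on SCD for H3K9me2 in BAT, and 500.67 on HFD and 236.21 on SCD for H3K9me3 in BAT. In WAT it scored 63.1 on HFD and 54.1 on SCD for H3K9me2, with no H3K9me3 peak. The start of Pold1, a DNA polymerase subunit gene, lies within 3 kb of its best peaks, so they cannot be assigned to Nr1h2 alone.

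The steroid hormone receptors, which bind cortisol-like hormones, aldosterone, estrogens and progesterone, had the most constant peaks. Pgr, the progesterone receptor gene, was marked at 1 site in all 8 lists, a region of 2353 bp at chr9:8900064-8902416 after merging the lists. For H3K9me2 in BAT its score was 270.16 on HFD and 202.34 on SCD, and for H3K9me3 in BAT 998.14 on HFD and 420.96 on SCD. In WAT it was 180.18 on HFD and 264.51 on SCD for H3K9me2, and 120.39 on HFD and 105.71 on SCD for H3K9me3. Ranked within each list, these peaks lay between the 77.0th and the 97.9th percentile of the best promoter peaks of all genes.

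Esr1, the gene of estrogen receptor alpha, was likewise marked at 1 site in all 8 lists, chr10:5633329-5634756. The site lies 100192 to 101619 bp downstream of the most upstream annotated start and covers another start of the gene. Its scores in BAT were 116.42 on HFD and 214.85 on SCD for H3K9me2, and 381.44 on HFD and 451.56 on SCD for H3K9me3. In WAT they were 100.31 on HFD and 256.83 on SCD for H3K9me2, and 95.97 on HFD and 53.39 on SCD for H3K9me3. The sequences of 300 bases around the start that these peaks cover in Pgr (chr9:8901199-8901498, plus strand) and Esr1 (chr10:5633841-5634140, minus strand) are shown because they carry the most constant peaks. All 300 bases of both are annotated as coding in some transcript, and they hold 18 CpGs in Pgr and 30 in Esr1, in capitals.
Pgr: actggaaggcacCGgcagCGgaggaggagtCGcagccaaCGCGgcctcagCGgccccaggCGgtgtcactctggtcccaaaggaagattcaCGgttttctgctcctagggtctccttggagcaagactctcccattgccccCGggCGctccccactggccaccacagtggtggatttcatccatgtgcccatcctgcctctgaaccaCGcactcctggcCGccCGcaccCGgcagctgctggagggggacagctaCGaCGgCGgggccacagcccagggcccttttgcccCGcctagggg
Esr1: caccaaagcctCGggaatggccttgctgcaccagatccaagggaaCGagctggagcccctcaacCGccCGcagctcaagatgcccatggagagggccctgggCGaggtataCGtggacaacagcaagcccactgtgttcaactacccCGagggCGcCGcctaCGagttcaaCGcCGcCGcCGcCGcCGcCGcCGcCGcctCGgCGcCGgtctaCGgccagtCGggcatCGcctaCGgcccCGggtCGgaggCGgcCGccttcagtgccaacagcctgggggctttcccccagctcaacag
The CpG ratio was 0.538 in the Pgr sequence and 0.851 in the Esr1 sequence. The windows differ from those of the 3 genes without promoter peaks, which are at the most upstream start. At its most upstream start Esr1 had a ratio of 0.249 and Pgr one of 0.452.

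Esr2, the gene of estrogen receptor beta, was also counted in all 8 lists, but its peaks differed in kind from those of the other receptors. In 7 lists they lay at 1 intronic site, chr12:77264984-77266032, between 2670 and 2794 bp from the nearest start and covering none. In HFD WAT H3K9me3 there was no peak at this site, and the gene was counted for a peak upstream, at chr12:77280667-77281387. Its best scores in BAT were 219.72 on HFD and 305.58 on SCD for H3K9me2, and 670.93 on HFD and 333.31 on SCD for H3K9me3. In WAT they were 82.1 on HFD and 246.03 on SCD for H3K9me2, and 141.61 on HFD and 69.5 on SCD for H3K9me3.

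The intronic site is a tandem repeat. The 701 bp common to the peaks of the 7 lists (chr12:77265208-77265908) matched themselves at 82.5% of positions when shifted by 39 bases, and held 7 exact copies of a unit of 39 bases. The middle 300 bases, on the strand of the gene (chr12:77265409-77265708, minus strand), are shown so that the repeat can be seen, with CpGs in capitals. No base of them is exonic.
Esr2 intron: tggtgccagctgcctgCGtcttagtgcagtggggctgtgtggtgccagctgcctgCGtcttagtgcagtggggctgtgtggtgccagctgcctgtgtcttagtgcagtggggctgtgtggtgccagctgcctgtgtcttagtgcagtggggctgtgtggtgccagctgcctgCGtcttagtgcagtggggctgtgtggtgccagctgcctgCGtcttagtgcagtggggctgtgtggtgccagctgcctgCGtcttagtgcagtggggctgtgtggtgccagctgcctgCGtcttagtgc
The unit begins anew after every 39 bases, and the copies differ in whether a CpG is present. Over the 300 bases at the centre of each peak, the 7 peaks at this site matched themselves at 98.9% to 99.6%, and the 3 upstream peaks of Esr2 at 87.4% to 92.6% with shifts of 14 or 44 bases. No promoter peak of another nuclear receptor gene reached 80%, the next being a peak of Nr4a1 at 59.3%. Among the promoter peaks of all genes, between 0.699% (HFD WAT H3K9me2) and 6.18% (SCD WAT H3K9me3) reached 80%. Reads that map to several places were removed by the authors, and what that did to counts in repeated sequence was not tested. With the promoter narrowed to 1 kb Esr2 was in no list, and the other 5 genes stayed in all 8.

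Nr3c2, the mineralocorticoid receptor gene, had a site of 2426 bp over its most upstream start in all 8 lists and a separate site beginning 2118 bp downstream of that start in 7 of them. Its best scores in BAT were 192.75 on HFD and 295.24 on SCD for H3K9me2, and 692.33 on HFD and 673.25 on SCD for H3K9me3. In WAT they were 187.22 on HFD and 424.76 on SCD for H3K9me2, and 193.0 on HFD and 53.6 on SCD for H3K9me3. Nr3c1, the glucocorticoid receptor gene, was the one steroid receptor missing from a list. It scored 78.2 on HFD and 204.23 on SCD for H3K9me2 in BAT, 797.34 on HFD and 659.95 on SCD for H3K9me3 in BAT, and 217.09 on HFD and 223.45 on SCD for H3K9me2 in WAT. In WAT it had no H3K9me3 peak on either diet. In HFD BAT H3K9me3 its score of 797.34 was the highest of any receptor gene but those of Pgr and Nr2f1.

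**Figure D3:**
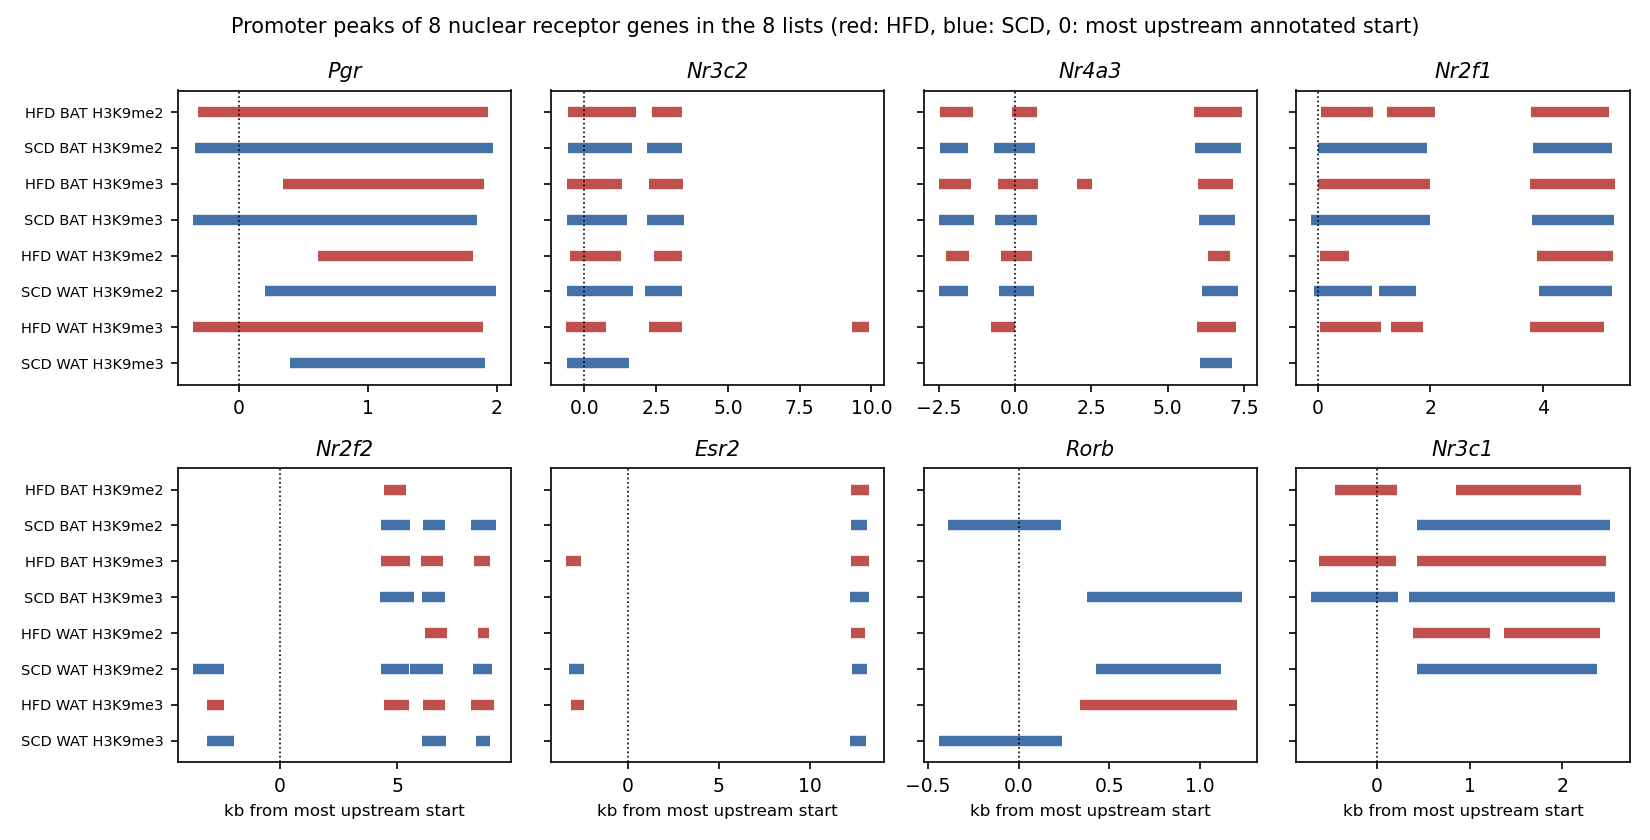
Promoter peaks (bars, as wide as the peak) of 8 nuclear receptor genes in the 8 lists (rows), by distance in kb from the most upstream annotated start (dotted line), positive downstream. HFD peaks are red and SCD peaks blue. The peaks of Pgr, Nr3c2, Nr4a3 and Nr2f1 lie at the same places in the lists that have them, those of Esr2 lie at 12214 to 13262 bp downstream or at -3399 to -2417 bp, and those of Rorb lie at either of 2 neighbouring sites.

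The thyroid hormone and retinoid receptors, with their RXR partners and the ROR genes, had peaks in 49 of 72 cases. Thrb, a thyroid hormone receptor gene, had a site over its most upstream start in 7 lists. It scored 179.21 on HFD and 251.45 on SCD for H3K9me2 in BAT, 628.85 on HFD and 666.51 on SCD for H3K9me3 in BAT, 217.39 on HFD and 77.4 on SCD for H3K9me2 in WAT, and 212.15 on HFD for H3K9me3 in WAT. Thra, the other thyroid hormone receptor gene, scored 57.4 on HFD for H3K9me2 in BAT, where SCD had none, and 369.87 on HFD and 333.19 on SCD for H3K9me3 in BAT. Its WAT scores were 142.27 on HFD and 80.6 on SCD for H3K9me2, and 86.0 on HFD for H3K9me3. The peak of 57.4 lay 2266 bp from the nearest start, whereas the other best peaks of Thra covered a start.

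Of the retinoic acid receptor genes, Rara was in 7 lists, Rarg in the 4 BAT lists and Rarb in 2. Rarb scored 82.4 in HFD BAT H3K9me2 and 60.1 in HFD WAT H3K9me3, at different starts, and 31.9 in SCD WAT H3K9me2, below the lowest score used. Of their partners, Rxrg scored 61.5 on HFD for H3K9me2 in BAT, with none on SCD, and 111.07 on HFD and 59.8 on SCD for H3K9me3 in BAT. In WAT it scored 85.8 on SCD for H3K9me2, with none on HFD, and 71.4 on HFD for H3K9me3, with none on SCD. Rxrb had its H3K9me2 peak in BAT on SCD alone, at 169.19. It scored 412.11 on HFD and 415.55 on SCD for H3K9me3 in BAT, and 100.03 on HFD and 167.38 on SCD for H3K9me2 in WAT. Its H3K9me3 peak in WAT was on SCD alone, at 60.4, and the starts of Slc39a7, H2-Ke6 and Col11a2 lie within 3 kb of one or another of its peaks.

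The ROR receptors take part in the circadian clock and in lipid metabolism. Rora scored 127.15 on HFD and 128.42 on SCD for H3K9me2 in BAT, and 503.31 on HFD and 378.82 on SCD for H3K9me3 in BAT. Its WAT scores were 155.11 on HFD and 144.33 on SCD for H3K9me2, and 154.6 on HFD for H3K9me3. Rorb, which is best known in retina and brain, was the one gene in more WAT than BAT lists. It had no promoter peak on HFD in BAT, against 81.9 on SCD for H3K9me2 and 60.6 on SCD for H3K9me3. In WAT it scored 111.18 on SCD for H3K9me2, with none on HFD, and 64.4 on HFD and 70.3 on SCD for H3K9me3, at neighbouring sites that do not overlap. Rorb was the only one of the 39 genes with an SCD promoter peak and no HFD promoter peak in 3 of the 4 pairs of lists. In its body, beyond 3 kb of any start, Rorb had 1 peak in HFD BAT H3K9me3 and 1 in HFD WAT H3K9me2.

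The estrogen-related receptors, orphans that drive genes of mitochondrial energy metabolism, split in a different way. Esrra, the one most closely tied to mitochondria in brown fat, had H3K9me3 promoter peaks in BAT (259.68 on HFD and 172.14 on SCD). It had no other promoter peak of at least 50. In its body, beyond 3 kb of any start, it had 1 H3K9me2 peak each in HFD BAT, SCD BAT and SCD WAT. The body also held 2 H3K9me3 peaks in HFD BAT and 1 in SCD BAT. Esrrb and Esrrg were in 7 lists each, with scores of 53.8 to 197.67 and 78.7 to 262.02.

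In the family of HNF4, COUP-TF, TR and TLX genes the highest score was at Nr2f1. It encodes COUP-TF1, a regulator of development. In SCD BAT H3K9me3 it had the highest score of all 39 genes, 1433.69, and in HFD BAT H3K9me3 it scored 945.1. It scored 195.7 on HFD and 248.31 on SCD for H3K9me2 in BAT, 172.48 on HFD and 162.05 on SCD for H3K9me2 in WAT, and 122.61 on HFD for H3K9me3 in WAT. In each of these 7 lists it was marked at both of 2 sites, one at -110 to 2075 bp from the most upstream start and one 3775 to 5273 bp downstream of it. The best peak changed between them, since it lay at the downstream site in HFD BAT H3K9me3 (945.1, against 615.63 at the upstream site) and at the upstream site in SCD BAT H3K9me3 (1433.69, against 452.02 at the downstream site). The sequence around the start nearest the middle of the highest-scoring peak of Nr2f1 (chr13:78337142-78337441, minus strand) is shown because the highest score of the family lies over it. Peaks cover that start in 5 lists. Of the 300 bases of the sequence, 61 are annotated as coding. It holds 18 CpGs, in capitals, with a ratio of 0.59.
Nr2f1: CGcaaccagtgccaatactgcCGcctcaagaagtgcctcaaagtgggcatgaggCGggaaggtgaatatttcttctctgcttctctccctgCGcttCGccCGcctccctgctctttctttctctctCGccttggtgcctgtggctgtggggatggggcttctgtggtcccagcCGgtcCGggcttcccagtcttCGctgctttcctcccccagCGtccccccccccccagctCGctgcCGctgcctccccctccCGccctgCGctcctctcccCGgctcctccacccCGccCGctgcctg
At the most upstream start of Nr2f1, which lies before this window, the ratio was 0.784 and the GC content 37.0%.

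Nr2f2, which encodes COUP-TFII, was in all 8 lists. It scored 71.2 on HFD and 115.37 on SCD for H3K9me2 in BAT, and 344.93 on HFD and 318.79 on SCD for H3K9me3 in BAT. Its WAT scores were 166.49 on HFD and 220.93 on SCD for H3K9me2, and 90.3 on HFD and 86.0 on SCD for H3K9me3. Their relative Nr2f6 was in 7 lists with scores of 110.54 to 718.68, and the start of Ocel1 lies within 3 kb of 5 of its 15 promoter peaks.

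The TR genes, orphans related to the retinoid receptors, were Nr2c1 and Nr2c2. Nr2c1 scored 59.9 on HFD and 68.4 on SCD for H3K9me2 in BAT, and 286.52 on HFD and 99.2 on SCD for H3K9me3 in BAT. In WAT it scored 85.8 on HFD for H3K9me2, where the SCD peak of 48.2 was below the lowest score, and 124.73 on HFD for H3K9me3. Nr2c2 had an H3K9me2 peak in BAT on SCD alone, at 107.49, and in WAT on HFD alone, at 63.4. Its H3K9me3 scores were 438.95 on HFD and 368.5 on SCD in BAT, and 82.0 on HFD in WAT.

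HNF4A is a master regulator of liver genes, Hnf4g its close relative, and Nr2e3 a photoreceptor gene. Hnf4a scored 67.3 in HFD BAT H3K9me3 and 52.3 in HFD WAT H3K9me3, with no SCD peak. Hnf4g scored 55.5 in SCD BAT H3K9me2, 64.8 in SCD BAT H3K9me3 and 63.4 in HFD WAT H3K9me3, where the SCD peak of 34.2 was below the lowest score. Nr2e3 scored 81.4 in HFD BAT H3K9me2, 122.63 in HFD BAT H3K9me3 and 123.24 in SCD WAT H3K9me2. None of these 3 genes had a peak of at least 50 in both diets of any pair of lists. Nr2e1, the TLX gene of neural stem cells, was in 7 lists with scores of 62.8 to 203.4.

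The NR4A receptors are immediate early genes, induced by cold, exercise and adrenergic signals, and act without a known ligand. Nr4a3 was marked in all 8 lists at a site 5856 to 7425 bp downstream of its most upstream start, and in 6 lists it also had a peak over that start. Its scores in BAT were 186.1 on HFD and 216.73 on SCD for H3K9me2, and 521.51 on HFD and 446.06 on SCD for H3K9me3. In WAT they were 143.58 on HFD and 128.34 on SCD for H3K9me2, and 118.57 on HFD and 50.6 on SCD for H3K9me3. The last of these was barely above the lowest score.

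Nr4a2 scored 81.3 on HFD and 139.37 on SCD for H3K9me2 in BAT, and 356.87 on HFD and 440.17 on SCD for H3K9me3 in BAT. In WAT the scores were 216.66 on HFD and 134.17 on SCD for H3K9me2, and 165.99 on HFD for H3K9me3. Nr4a1 scored 77.1 on HFD and 97.2 on SCD for H3K9me2 in BAT, 210.54 on HFD and 101.42 on SCD for H3K9me3 in BAT, and 78.2 on HFD for H3K9me2 in WAT, where the SCD peak of 34.0 was below the lowest score. Of the last group, Nr5a1, which drives steroid hormone synthesis, was in 7 lists (65.5 to 568.02), the germ cell factor Nr6a1 in 6 (64.6 to 321.51), and Nr5a2, a regulator of bile acid synthesis, in 3 (74.6 to 111.96).

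Set against each other, the diets shared most of the marked genes in 3 of the 4 pairs of lists, among receptors and genes at large. Of the genes marked on either diet, 66.7% of the receptors, beside 55.8% of all genes, were marked on both for H3K9me2 in BAT, 28 of 35 beside 82.0% for H3K9me3 in BAT, 75.0% beside 65.0% for H3K9me2 in WAT and 25.9% beside 14.0% for H3K9me3 in WAT. For H3K9me2 in BAT, 7 genes had a promoter peak on HFD alone (17.9%, beside 13.8% of all genes) and 4 on SCD alone (10.3%, beside 11.5% of all genes), and 22 had one on both diets. For H3K9me3 in BAT the numbers were 5 on HFD alone (12.8%, beside 8.83% of all genes), 2 on SCD alone (5.13%, beside 2.16%) and 28 on both. For H3K9me2 in WAT they were 4 on HFD alone (10.3%, beside 7.16%), 3 on SCD alone (7.69%, beside 10.2%) and 21 on both. For H3K9me3 in WAT they were 19 on HFD alone (48.7%, beside 30.6%), 1 on SCD alone (2.56%, beside 1.68%) and 7 on both. The order for H3K9me2 in BAT turned round with a score of at least 80 (3 on HFD alone and 8 on SCD alone), with equal numbers of peaks (2 and 6) and with 1 start per gene (3 and 7). Over all genes it turned round too with a score of at least 80 (10.8% on HFD alone and 13.3% on SCD alone) and with equal numbers (5.73% and 12.0%). With 1 start per gene it did not turn round over all genes (12.7% and 12.5%). That for H3K9me2 in WAT turned round with no lowest score (1 on HFD alone and 8 on SCD alone), with a score of at least 80 (2 and 6) and with equal numbers (4 and 5). Over all genes SCD alone was the larger part already at a score of at least 50 (7.16% on HFD alone and 10.2% on SCD alone). It stayed so with no lowest score (588 and 4027 genes) and with a score of at least 80 (7.92% and 10.7%). With equal numbers HFD alone was the larger part over all genes (9.41% and 7.43%). A share near that of all genes is not a result about the receptors. Outside H3K9me3 of WAT, every receptor share on 1 diet alone, at a score of at least 50 and any start, had an interval that held the share of all genes. The 19 genes in H3K9me3 of WAT had an interval of 32.4 to 65.2%, but as a part of the genes marked on either diet they were 19 of 27 (70.4%), beside 81.5% among all genes.

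**Figure D4:**
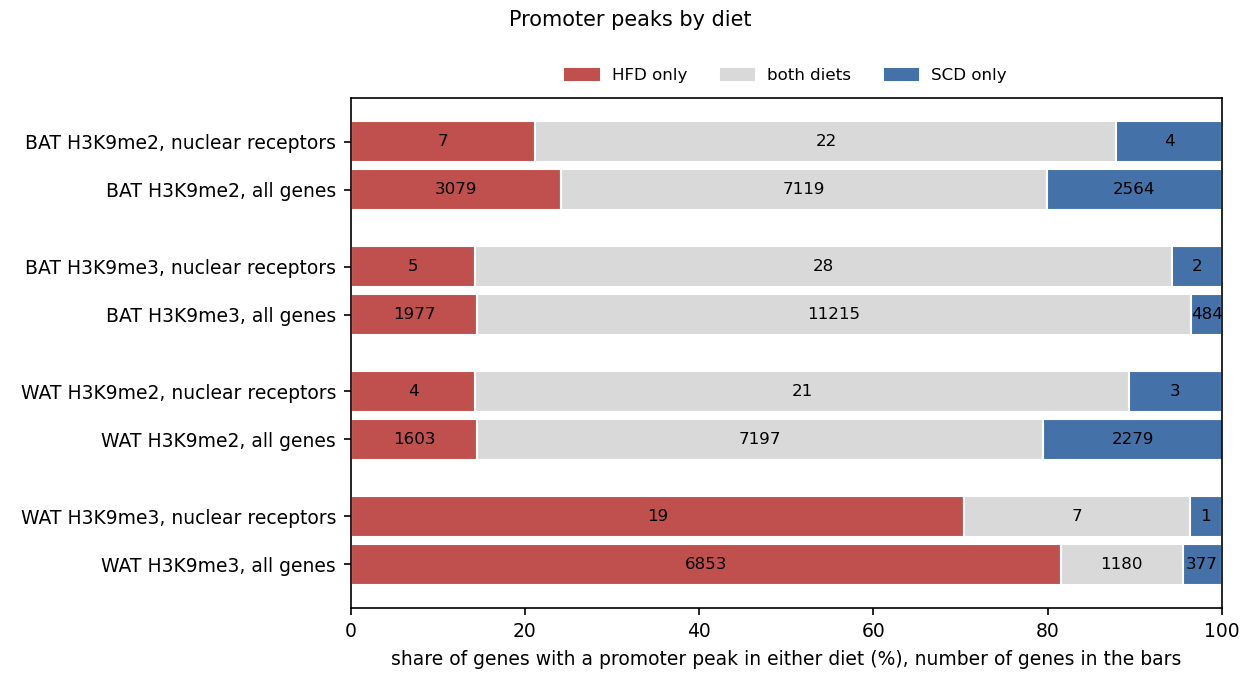
Genes with a promoter peak on HFD alone (red), on both diets (grey) and on SCD alone (blue), as a percentage of the genes with a peak on either diet (x axis), for each tissue and mark. Numbers in the bars are genes. The nuclear receptor genes have 7, 22 and 4 genes in BAT H3K9me2 and 19, 7 and 1 in WAT H3K9me3, with all genes drawn below them for each tissue and mark.

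The HFD lists in BAT were also the longer ones, with 43173 peaks on HFD and 24887 on SCD for H3K9me2 and 52758 on HFD and 26835 on SCD for H3K9me3. In WAT there were 21976 on HFD and 21746 on SCD for H3K9me2, and 29190 on HFD and 8350 on SCD for H3K9me3. When each list was reduced to its 8350 highest peaks, H3K9me2 in BAT was present at 10 receptor genes on HFD and at 14 on SCD, the opposite order, which all genes showed too (2632 genes on HFD and 4025 on SCD). In the same lists H3K9me3 in BAT was present at 19 on HFD and 16 on SCD (all genes 24.1% and 23.1%), H3K9me2 in WAT at 16 on HFD and 17 on SCD (21.9% and 19.9%), and H3K9me3 in WAT at 12 on HFD and 8 on SCD (12.1% and 6.96%). Over 6 lists of cell type markers, 40 genes in all, an H3K9me2 peak in BAT was present at 18 on HFD and 10 on SCD, and an H3K9me3 peak in BAT at 20 on HFD and 11 on SCD. The lists differed, with 4 on HFD and 1 on SCD of 6 endothelial markers but 3 on HFD and 4 on SCD of 6 skeletal muscle markers for H3K9me3 in BAT, and 1 on each diet of 8 white adipocyte markers for H3K9me2 in BAT. The part of list length and of cell makeup in the diet differences was not tested.

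The genes with a promoter peak on 1 diet alone were partly the same for both marks in BAT, and only promoter peaks are counted here. Nr1h3, Vdr, Nr0b2 and Nr2e3 had promoter peaks on HFD alone for both marks, and Rorb and Hnf4g on SCD alone for both. In H3K9me2 of BAT the HFD list had Thra, Rarb and Rxrg in addition, and the SCD list Rxrb and Nr2c2. In H3K9me2 of WAT the HFD-only genes were Nr1h3, Nr2c1, Nr2c2 and Nr4a1, and 3 of these (Nr1h3, Nr2c1 and Nr4a1) had an SCD peak below 50. The SCD-only genes there were Rxrg, Rorb and Nr2e3, without any weaker HFD peak, although the HFD list stops at 50. In H3K9me3 of WAT 7 of the 19 HFD-only genes had an SCD peak below 50, among them Esrrb at 49.4 and Esrrg at 45.4, and the other 12 had none down to 30. The members nearest to the lowest score were Rara at 50.1 (a second peak in SCD BAT H3K9me3) and Vdr at 50.2 on the inside, and Esrrb at 49.4 and Nr2c1 at 48.2 on the outside.

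Where a receptor gene was marked on both diets, the peaks were mostly at the same place, as they were at genes at large. There were 78 such cases over the 4 pairs of lists, and in 74 a peak of HFD overlapped one of SCD by at least 1 bp (94.9%, beside 96.4% over all genes), as it did in 74 by at least 50% of the shorter peak. The exceptions were Esrrb and Rarg for H3K9me2 in BAT, which were marked at different places, and Esr2 and Rorb for H3K9me3 in WAT.

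Between tissues, 25 receptor genes were in more BAT than WAT lists (64.1%, beside 51.2% of all genes) and 1, Rorb, in more WAT than BAT lists (2.56%, beside 4.38%). On HFD, 23 genes had an H3K9me2 peak in both tissues (59.0%, beside 28.9% of all genes), and on SCD 21 had (53.8%, beside 33.7%). For H3K9me3 the numbers were 23 on HFD (59.0%, beside 33.1%) and 8 on SCD (20.5%, beside 5.64%). The 22 genes with an H3K9me3 promoter peak on SCD in BAT alone included both thyroid hormone receptors, Rora, Nr3c1 and all 3 estrogen-related receptors. Of these, Esrrb (49.4) and Esrrg (45.4) had an SCD WAT H3K9me3 peak just below the lowest score used. On HFD the 10 genes with H3K9me3 in BAT alone included Nr1h2, Nr1h3, Nr3c1 and Esrra. Over all genes, 52.3% had an H3K9me3 peak in SCD BAT and 5.64% in both tissues on SCD. On HFD these shares were 58.9% and 33.1%, so genes with the mark in BAT alone were frequent at large too. With the 8350 highest peaks of each list, 11 genes were in more BAT lists (beside 21.4% of all genes) and 7 in more WAT lists (beside 11.9%).

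Between marks, 16 receptor genes were in more H3K9me2 than H3K9me3 lists (41.0%, beside 31.0% of all genes), and 8 the other way (20.5%, beside 16.3%). Both marks stood at 28 genes in HFD BAT (71.8%, beside 40.8% of all genes), at 26 in SCD BAT (66.7%, beside 40.3%), at 19 in HFD WAT (48.7%, beside 26.1%) and at 8 in SCD WAT (20.5%, beside 5.84%). Where both were present their peaks overlapped in 27, 25, 18 and 7 of these cases, in all 95.1%, as over all genes. In SCD BAT every receptor gene with an H3K9me2 peak also had an H3K9me3 peak, and in SCD WAT every one with an H3K9me3 peak also had an H3K9me2 peak. Most genes at large did the same. Both marks stood at 9013 of the 9683 genes with H3K9me2 in SCD BAT, and at 1307 of the 1557 with H3K9me3 in SCD WAT. By promoter peaks, Rarb was the one gene with H3K9me2 and no H3K9me3 in HFD BAT. Rxrb, Esrra, Hnf4a, Nr2c2 and Nr5a2 had H3K9me3 promoter peaks alone there. In its body, beyond 3 kb of any start, Rarb had 4 H3K9me3 and 2 H3K9me2 peaks in HFD BAT. The bodies of Esrra and Nr5a2 held 1 H3K9me2 peak each in HFD BAT.

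Most of the peaks lay over a start, among receptors and genes at large. Of the 201 best peaks, 154 (76.6%, beside 77.2% over all genes) covered an annotated start and 173 (86.1%) had their middle within 1 kb of one. By the position of the middle, 71 were intronic, 54 in coding exons, 53 in untranslated exons, 22 upstream of the gene and 1 downstream. Merging the 339 promoter peaks over the lists gave 85 sites at 36 genes, of which 5 were marked in all 8 lists (at Pgr, Esr1, Nr3c2, Nr2f2 and Nr4a3) and 19 in 1 list. At 4 of the 36 genes (Nr1h2, Rxrb, Nr2e1 and Nr2f6) another protein-coding gene starts within 3 kb of a best peak.

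The promoters of the receptor genes differed from those of genes at large in 2 features, chosen after the data were seen. A gene was called CpG-rich when at least 1 of its starts had, from 250 bases before to 50 after, an observed over expected CpG ratio of at least 0.6 and a GC content of at least 50%. By that measure 26 of the 39 (66.7%) were CpG-rich, beside 51.4% of all genes. Over all genes, the CpG-rich ones had peaks more often in every list. Among the receptors this held but for SCD WAT H3K9me3, with 19.2% of the CpG-rich and 23.1% of the CpG-poor ones. Among CpG-rich genes the receptors and genes at large had H3K9me3 peaks at close shares in HFD BAT (92.3% of the receptors, 88.8% of all) and stood further apart for H3K9me2 in HFD BAT (84.6% and 62.4%). Among the 13 CpG-poor receptor genes, 9 (69.2%) had an H3K9me3 peak in HFD BAT, beside 27.4% of CpG-poor genes at large, and 8 (61.5%) in HFD WAT, beside 18.5%. The share of the receptors was the higher one in both classes in all 8 lists. CpG-poor by this measure were the 3 genes without promoter peaks, and Vdr, Nr0b2, Hnf4a, Hnf4g, Nr2e3 and Nr5a2, which were in 2 or 3 lists. Pgr, Esr2, Nr2f1 and Nr2f2, in 7 or 8 lists, were CpG-poor as well. Among genes with 4 or more starts (28 receptors), the receptors had a higher share in all 8 lists as well, such as 78.6% beside 60.1% in HFD BAT H3K9me2. Among genes with 2 to 3 starts (8 receptors) they were below genes at large for H3K9me3 in HFD BAT (62.5% beside 63.0%) and for H3K9me2 in SCD WAT (37.5% beside 45.8%). The 3 receptor genes with 1 start had no peak in SCD WAT H3K9me2, HFD WAT H3K9me3 or SCD WAT H3K9me3, beside 30.7%, 26.8% and 6.29% of genes at large, and were below them for H3K9me3 in SCD BAT as well (33.3% beside 37.3%). The part of CpG content and of the number of starts in the shares was not tested.

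**Figure D5:**
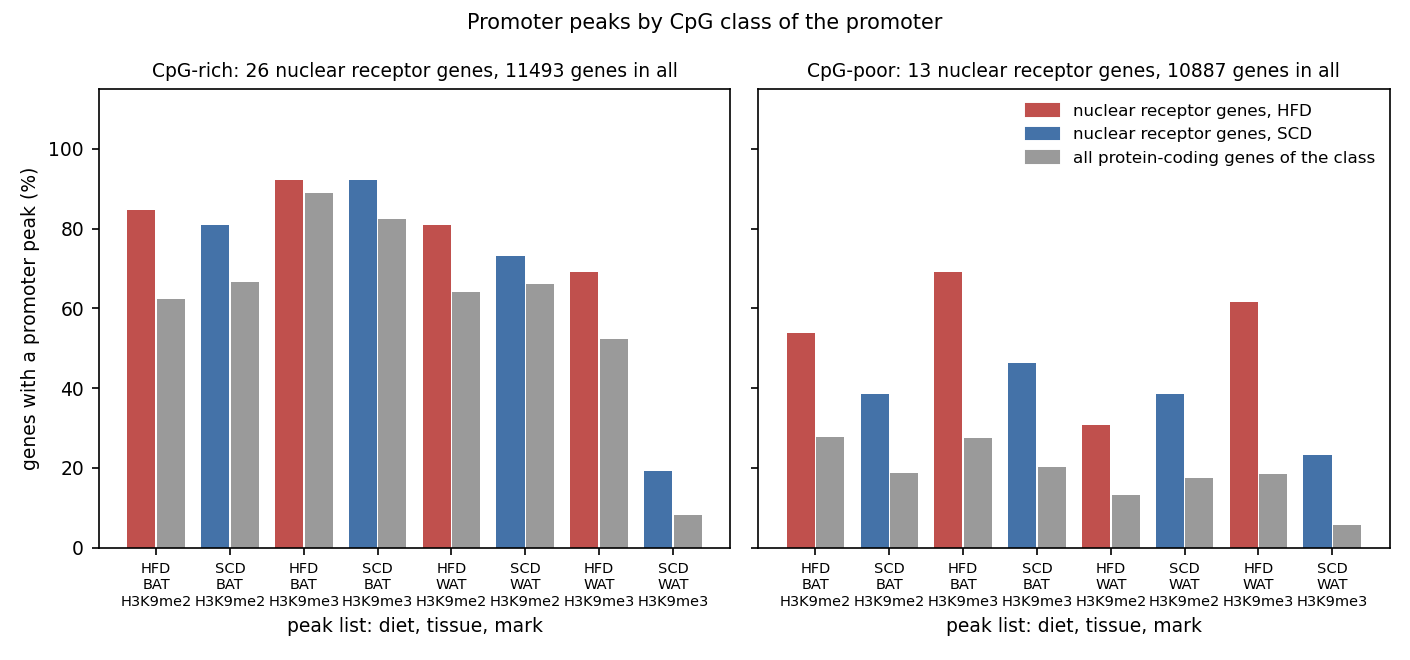
Share of genes with a promoter peak (y axis, percent) in the 8 lists (x axis) among CpG-rich genes (left, 26 receptors of 11493 genes) and CpG-poor genes (right, 13 receptors of 10887 genes). Red (HFD) and blue (SCD) bars are the nuclear receptor genes, grey bars all genes of the class. The coloured bar is taller in every list of both classes, with 84.6% beside 62.4% at CpG-rich and 53.8% beside 27.8% at CpG-poor genes in HFD BAT H3K9me2.

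Short motifs were searched on both strands of the same 300 bases at the most upstream start, and no motif contains another. The nuclear receptor core motif AGGTCA was found at 5 of the 39 (12.8%, beside 14.4% of all promoters), the cAMP response element TGACGTCA at 1, that of Nr2e1 (2.56%, beside 2.32%), the GC box GGGCGG at 18 (46.2%, beside 43.4%) and the E-box CACGTG at 5 (12.8%, beside 7.78%). A match is a description of the letters and not of binding.

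The genes that work with the receptors were looked at by 4 lists. Of 14 corepressors, such as Ncor1 and Hdac3, H3K9me2 peaks in BAT were present at 9 on HFD and 12 on SCD, and H3K9me3 peaks in BAT at 14 on HFD and 13 on SCD. In WAT H3K9me2 was present at 14 on HFD and 12 on SCD, and H3K9me3 at 11 on HFD and 0 on SCD. Of 20 coactivators, such as the Ncoa genes, H3K9me2 in BAT was present at 14 on HFD and 17 on SCD, H3K9me3 in BAT at 18 on HFD and 19 on SCD, H3K9me2 in WAT at 15 on HFD and 14 on SCD, and H3K9me3 in WAT at 12 on HFD and 1 on SCD. Counted over all annotated starts, both lists of cofactors were thus above the shares of all genes in every list but SCD WAT H3K9me3. In that list they were at 0% and 5.0%, beside 6.96%. In HFD BAT H3K9me2, for example, 64.3% of the corepressors had a peak, beside 45.6% of all genes. For the receptors, the interval lay above all genes in 0 of the 8 lists with 1 start per gene. The cofactors were not counted with 1 start per gene or by CpG class, so the part of these features was not tested. Ncoa1, a steroid receptor coactivator, had H3K9me2 peaks on SCD alone, at 158.26 in BAT and 108.96 in WAT, and Hdac3, the deacetylase of the corepressor complex, an H3K9me3 peak in BAT on HFD alone, at 387.5.

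Genes of ligand metabolism and target genes lay nearer to genes at large. Of 28 genes that make, break down or carry ligands, 15 on HFD and 14 on SCD had an H3K9me2 peak in BAT (53.6% on HFD, beside 45.6% of all genes), and 19 on HFD and 16 on SCD an H3K9me3 peak in BAT (67.9% on HFD, beside 58.9%). Ch25h, which makes an oxysterol, had both marks in BAT on HFD alone (147.76 for H3K9me2 and 205.86 for H3K9me3). Cyp26a1, which breaks down retinoic acid, had an H3K9me2 peak in BAT (168.04) and an H3K9me3 peak in WAT (156.25) on HFD alone. Of 28 target genes, of which Rarb is one of the 39 receptors as well, 13 on HFD (46.4%) and 10 on SCD (35.7%) had an H3K9me2 peak in BAT, and 17 on HFD (60.7%) and 16 on SCD (57.1%) an H3K9me3 peak in BAT. Among them Ucp1, a target of thyroid hormone and retinoid receptors in brown fat, had an H3K9me3 peak in BAT on HFD alone, at 129.42, and the LXR target Abcg1 an H3K9me2 peak on HFD alone in BAT (80.1) and in WAT (75.9). In WAT the glucocorticoid target Tsc22d3 had an H3K9me2 peak on SCD alone, at 170.9.

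Away from the starts the order was the other way round. In the 4.15 Mb of the receptor genes beyond 3 kb of any start, there were between 2.89 and 9.88 peaks per Mb, and in the 873 Mb of all genes between 2.4 and 17.4. For H3K9me2 in BAT there were 9.88 peaks per Mb on HFD and 4.09 on SCD in the receptor genes, beside 17.4 and 6.5 in all genes. The receptor genes were below all genes in 7 lists, and above them in SCD WAT H3K9me3 (2.89 beside 2.4). Most of the body peaks were in long genes, with 7 in Esr1 for HFD BAT H3K9me3 and 6 in Esrrg for SCD WAT H3K9me3, a list in which Esrrg had no promoter peak of at least 50.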

How the data were processed

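ChIP-seq peak lists of 8 of the 12 libraries were analysed, and the 4 inputs were not used here. Per the methods and the submitters' processing notes, the authors used FastQC, Trim Galore and Bowtie2 2.4.2 with mm9, removed multi-mapping reads and called peaks with MACS2. The deposited lists give a score per peak, read as 10 times the negative log10 of a p-value because the lists begin at 50 (both SCD WAT lists at 30). The authors did not scale scores between libraries, and depth is unknown.

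Genes and starts came from GENCODE vM1 on NCBIM37 (22380 protein-coding genes, 70064 starts). Sequences came from NCBIM37. Peaks with a score of at least 50 within 3 kb of any start were counted with Python 3.11.15, NumPy 2.4.6, pandas 2.3.3, SciPy 1.17.1 and matplotlib 3.10.9, and the counting was tested on simulated data. Samples were grouped by diet, tissue and antibody in the labels. With 1 library per group no test was made.

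The genes and lists were chosen with earlier results of these data known. CpG classes, the repeat measure, merged sites, printed sequences, shares within 1 kb by role and overlaps over all genes were chosen after the data were seen. Scores in all lists were to be given for genes in all 8 lists, those with the 3 highest scores, those marked on 1 diet in 2 or more pairs of lists, and the highest peaks (up to 3) marked on 1 diet in each tissue, mark and direction. Of each pathway list, up to 3 such genes per comparison could be named. Other genes were named after their values were seen. Alternatives were a score of at least 80, no lowest score, equal numbers of peaks, a 1 kb window, 1 start per gene and a 50% overlap.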

Additional observations from a re-analysis of the deposited data

Results flagged for a closer look

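At 4 receptor genes the diet with the peak differed between the tissues. These differences were not tested, as each group had 1 library. The share of all genes with such a difference is not given, so the count is no result about the receptors. Rxrg, an RXR partner gene, had an H3K9me2 peak in BAT on HFD alone, at a score of 61.5, and in WAT on SCD alone, at 85.8. The WAT peak overlapped another HFD BAT peak of Rxrg, at 60.9, whereas the one of 61.5 lay elsewhere. Nr2c2, the TR4 orphan receptor gene, had an H3K9me2 peak in BAT on SCD alone, at 107.49, and in WAT on HFD alone, at 63.4, and these overlapped. Nr2e3, the photoreceptor gene, had an H3K9me2 peak in BAT on HFD alone, at 81.4, and in WAT on SCD alone, at 123.24, and these overlapped as well. For H3K9me3, Hnf4g had a peak in BAT on SCD alone, at 64.8, and in WAT on HFD alone, at 63.4, and these overlapped. In WAT an SCD peak of 34.2 lay below the lowest score used.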

How the results depend on the processing

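No paired analysis was possible because each group had 1 library, and no library could be left out. The 22 counts of receptor genes that answer a comparison were recomputed under 5 settings. They stayed within 1.5 times of the value reported in 21 of 22 with a 1 kb window, 15 with no lowest score, 13 with 1 start per gene, 10 with a score of at least 80 and 5 with equal numbers of peaks. The 74 overlaps between diets were the same at 50% of the shorter peak. The cause of the changes was not tested.

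With a score of at least 80, H3K9me2 in BAT was at 16 genes on HFD (beside 26.6% of all genes). H3K9me3 in WAT was at 17 on HFD (beside 19.2%) and 2 on SCD (beside 2.6%). On 1 diet alone for H3K9me2 in BAT were 3 on HFD (beside 10.8% of all genes) and 8 on SCD (beside 13.3%). For H3K9me3 in BAT there were 0 on SCD (beside 1.92%). For H3K9me2 in WAT there were 2 on HFD (beside 7.92%) and 6 on SCD (beside 10.7%), and for H3K9me3 in WAT 0 on SCD (beside 0.903%). In all 8 lists was 1 gene (beside 1.05%), in none 7 (beside 41.1%), and in more WAT than BAT lists 2 (beside 2.88%).

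With no lowest score, H3K9me3 in WAT was at 16 genes on SCD. On 1 diet alone in WAT were 1 on HFD and 8 on SCD for H3K9me2 (588 and 4027 of all genes). For H3K9me3 there were 12 on HFD and 2 on SCD (5340 and 1543 of all genes). In all 8 lists were 11 genes, and in more WAT lists 4.

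With the 8350 highest peaks of each list, H3K9me2 in BAT was at 10 genes on HFD and 14 on SCD, H3K9me3 in BAT at 19 on HFD and 16 on SCD, H3K9me2 in WAT at 16 on HFD and H3K9me3 in WAT at 12 on HFD. On 1 diet alone were 2 on HFD for H3K9me2 in BAT (beside 5.73% of all genes). For H3K9me3 in BAT there were 3 on HFD (beside 6.39%) and 0 on SCD (beside 5.39%). In WAT there were 5 on SCD for H3K9me2 (beside 7.43%), and 8 on HFD (beside 8.97%) and 4 on SCD (beside 3.87%) for H3K9me3. In all 8 lists were 3 genes (beside 1.09%) and in none 13 (beside 57.9%). In more BAT lists were 11 (beside 21.4%), in more WAT lists 7 (beside 11.9%) and in more H3K9me2 lists 9 (beside 16.8%).

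With a 1 kb window 2 genes were in more WAT lists (beside 4.01% of all genes). With the most upstream start alone, H3K9me2 in BAT was at 16 genes on HFD (41.0%, beside 40.1% of all genes). H3K9me3 in WAT was at 17 on HFD (beside 32.2%) and 5 on SCD (beside 5.67%). In 0 of 8 lists did the receptors' interval lie above all genes. On 1 diet alone were 3 on HFD (beside 12.7% of all genes) and 7 on SCD (beside 12.5%) for H3K9me2 in BAT. For H3K9me3 in BAT there were 3 on HFD (beside 8.54%). In all 8 lists were 2 genes (beside 2.97%), in none 10 (beside 35.1%) and in more WAT lists 5 (beside 4.46%). The depth of the libraries is unknown, so no limit of detection can be given.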
